A study of Homo sapiens with 6 samples.

Results

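The 41 genes described here encode the regulators, enzymes and transporters of cholesterol and fatty acid synthesis, and were chosen by gene symbol from 58676 listed genes: 4 regulators (SREBF1, SREBF2, SCAP and INSIG1), 18 genes of the sterol arm, 15 of the fatty acid arm and 4 of sterol transport and receptor turnover. RNA sequencing was available for A549, an established human lung adenocarcinoma cell line, in 3 libraries of A549 Rec and 3 of A549 MOCK. A549 Rec cells were transduced with a retroviral vector carrying a human recoverin cDNA with a myc tag and selected with puromycin, and A549 MOCK cells received the empty vector. Recoverin is a calcium sensor of photoreceptors, and the libraries address what its aberrant expression changes in these cells. Both lines were grown as 2D monolayers for 6 days in high-glucose DMEM that held calcium pantothenate at 4 mg/L, d-biotin at 8 mg/L, 10% CS, antibiotics and methylcellulose. Values of 3 libraries are given in the order of replicates 1, 2 and 3. Whether the selected cells were a single clone or a pool, and whether the 3 replicates were separate cultures, is not given in the sources used here, so a p-value below measures only the spread between these libraries.

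Cholesterol and fatty acid synthesis are switched on together by the sterol regulatory element-binding proteins, SREBP1 (gene SREBF1) and SREBP2 (gene SREBF2). These are made as inactive membrane precursors that SCAP escorts out of the endoplasmic reticulum when sterols run low, whereas INSIG1 holds SCAP back when sterols are plentiful. The released factors bind sterol regulatory elements, usually beside sites for NF-Y and Sp1, and SREBP2 acts mainly on sterol genes while SREBP1c acts mainly on fatty acid genes. INSIG1 is itself a target and closes the feedback loop.

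The promoter windows of 4 members are shown because SREBF2 and INSIG1 regulate the program, HMGCS1 opens the sterol arm and NPC1 is the transport gene with the largest replicate difference described below. Each window is the 250 bases before the RefSeq gene start in GRCh38.p14, read on the gene's strand, at chr22:41832855-41833104 (plus strand) for SREBF2, chr7:155297628-155297877 (plus strand) for INSIG1, chr5:43313413-43313662 (minus strand) for HMGCS1 and chr18:23586507-23586756 (minus strand) for NPC1. Capitals mark the sterol regulatory element core TCACNCCAC and the NF-Y box CCAAT, either of which may read on the other strand, so that CCAAT can appear as ATTGG. The NPC1 window held neither motif and is printed for comparison.
SREBF2: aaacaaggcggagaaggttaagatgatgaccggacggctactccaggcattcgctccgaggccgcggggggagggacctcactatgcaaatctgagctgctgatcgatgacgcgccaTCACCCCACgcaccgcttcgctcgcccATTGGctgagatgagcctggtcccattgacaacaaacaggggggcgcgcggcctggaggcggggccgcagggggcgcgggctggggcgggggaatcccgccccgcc
INSIG1: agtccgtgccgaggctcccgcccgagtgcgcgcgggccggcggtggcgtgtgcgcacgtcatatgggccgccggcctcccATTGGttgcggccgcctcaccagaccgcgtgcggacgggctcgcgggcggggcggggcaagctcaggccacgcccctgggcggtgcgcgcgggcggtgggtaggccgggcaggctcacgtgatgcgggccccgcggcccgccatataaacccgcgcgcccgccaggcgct
HMGCS1: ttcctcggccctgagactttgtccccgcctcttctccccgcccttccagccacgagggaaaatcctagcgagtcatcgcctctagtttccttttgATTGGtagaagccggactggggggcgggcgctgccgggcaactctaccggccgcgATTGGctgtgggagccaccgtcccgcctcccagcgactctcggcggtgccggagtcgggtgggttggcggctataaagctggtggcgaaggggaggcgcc
NPC1: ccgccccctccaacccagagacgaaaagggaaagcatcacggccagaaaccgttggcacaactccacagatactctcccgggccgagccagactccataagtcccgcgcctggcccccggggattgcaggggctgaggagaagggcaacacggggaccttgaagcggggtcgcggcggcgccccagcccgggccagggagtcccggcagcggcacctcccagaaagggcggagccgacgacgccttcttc

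RefSeq windows were found for 37 of the 41 members and for 35116 promoters in all, and each motif was searched on both strands. TCACNCCAC was found in SREBF2 alone among the members, with its first base 133 bases before the start, and in 0.883% of all promoters. CCAAT was found in 24 of 37 member promoters (64.9%), with 12 of 15 in the sterol arm (80.0%) and 7 of 14 in the fatty acid arm, against 32.0% of all promoters. GGGCGG, the GC box bound by Sp1, was found in 32 of 37 member promoters (86.5%), with 14 of 15 in the sterol arm (93.3%) and 11 of 14 in the fatty acid arm (78.6%), against 42.6% of all promoters. A match is a description of these letters in these windows only.

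The values were TPM (reads per gene length, scaled so that each library sums to 1000000), and the reads recovered from them came to between 15183471 and 18572138 per library. RCVRN, the transduced gene, was listed at 0 in all 3 A549 MOCK libraries and at 322, 338 and 339 TPM in A549 Rec. Of 6 epithelial markers, KRT7, KRT8, KRT18 and CDH1 were abundant (109 to 3361 TPM) while EPCAM reached 2.98 TPM and KRT19 0.32 TPM. Of 4 alveolar type II and lung adenocarcinoma markers, NAPSA lay between 2.07 and 4.38 TPM and NKX2-1, SFTPB and SFTPC did not exceed 0.43 TPM, so the defining lineage markers of the labelled tissue were at or near 0. CD3E was listed at 0 in every library, and the summed levels of 3 endothelial, 4 fibroblast and 3 leukocyte markers did not exceed 0.91, 5.18 and 7.37 TPM. Genes encoded by the mitochondrial genome made up 13.6%, 15.7% and 34.5% of all TPM for A549 MOCK and 17.3%, 13.3% and 26.9% for A549 Rec, so that both replicate 3 libraries stood apart from the other 4. As TPM adds up to a fixed sum, a larger mitochondrial share lowers every nuclear gene, and counts of directions, pair differences and the replicate 3 contrast are therefore also or only given on TPM rescaled to 1000000 over the genes outside the mitochondrial genome.

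Both arms were transcribed in both lines, and the summed fatty acid arm exceeded the sterol arm in every library. Levels differed widely, with ranks by mean TPM among all listed genes from 34 (SCD) to 15331 (ACACA). SCD alone held 1977 to 2629 TPM of the fatty acid sums. On the deposited scale the 15 fatty acid genes summed to 5041, 4998 and 3784 TPM for replicates 1, 2 and 3 of A549 MOCK and to 4513, 4771 and 4335 TPM for those of A549 Rec. The 18 sterol genes summed to 1328, 1303 and 889 TPM among the A549 MOCK libraries and to 1230.0, 1279 and 1050.4 TPM among the A549 Rec libraries. A549 MOCK replicate 3 was the lowest library for both arms. After rescaling, the fatty acid sums lay between 5457 and 5932 and the sterol sums between 1357 and 1546, so the spread between libraries narrowed, and A549 MOCK replicate 3 remained the lowest for the sterol arm while A549 Rec replicate 1 was the lowest for the fatty acid arm.

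Among the regulators, SREBF1 was the most abundant on the TPM scale, at 201, 207 and 157 TPM for replicates 1, 2 and 3 of A549 MOCK and 183, 204 and 149 TPM for those of A549 Rec. INSIG1 was at 156, 155 and 86.3 TPM among the A549 MOCK libraries and 123, 141 and 96.2 TPM among the A549 Rec libraries. SREBF2 followed with 83.3, 87.5 and 58.9 TPM among the A549 MOCK libraries and 78.3, 82.6 and 72.3 TPM among the A549 Rec libraries. For each of these genes replicate 3 was the lowest library of its group and the groups overlapped. SCAP, the escort protein, was the lowest of the regulators at 37.5, 34.1 and 24.3 TPM among the A549 MOCK libraries and 34.8, 37.3 and 26.7 TPM among the A549 Rec libraries. SREBF1 exceeded SREBF2 in every library, and neither total distinguishes the SREBP1a and SREBP1c transcripts.

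The sterol arm ran from DHCR7, which makes the last step to cholesterol from 7-dehydrocholesterol, down to CYP51A1, the lanosterol demethylase. DHCR7 ranked 561 among all listed genes by mean TPM and stood at 228, 232 and 141 TPM among the A549 MOCK libraries and 206, 225 and 176 TPM among the A549 Rec libraries. FDPS, the farnesyl diphosphate synthase, was at 160.1, 149 and 98.2 TPM among the A549 MOCK libraries and 144, 159 and 117 TPM among the A549 Rec libraries. EBP, a sterol isomerase, was at 134, 132 and 97.2 TPM among the A549 MOCK libraries and 127, 130.4 and 117 TPM among the A549 Rec libraries. PMVK, the phosphomevalonate kinase, and SQLE, the squalene epoxidase, had means over the 6 libraries close to each other at 104 TPM. PMVK was at 117, 117 and 72.0 TPM among the A549 MOCK libraries and 119, 114 and 88.7 TPM among the A549 Rec libraries. SQLE was at 116, 118 and 78.7 TPM among the A549 MOCK libraries and 107, 111 and 91.8 TPM among the A549 Rec libraries. In all 5 of these genes A549 MOCK replicate 3 was the lowest of the 6 libraries and the groups overlapped. The other members of the sterol arm had means between 81.8 TPM (MSMO1) and 4.98 TPM (CYP51A1). Among neighbours in the order of the whole arm, EBP at 121 ± 20.7 and FDPS at 136 ± 33.0 TPM for A549 MOCK (SD, n = 3) overlapped in spread. That spread held the low replicate 3 values of both genes, and FDPS exceeded EBP in all 3 A549 MOCK libraries and in A549 Rec replicates 1 and 2. The mevalonate enzymes MVD at 46.7 ± 10.3 and MVK at 24.1 ± 3.46 TPM for A549 MOCK (SD, n = 3) lay apart. CYP51A1 rested on 53 to 129 reads per library, the fewest of the sterol arm, and 74.1% of its exon length in GENCODE v44 overlapped 4 other genes, so its reads could not be assigned to it with certainty. Of all 41 members, 22 overlapped another gene, and the same limit holds for the shared part of each. The next largest shares of exon length were 37.7% for HMGCS1, 36.4% for EBP, 22.2% for ACAT2 and 18.6% for FDPS.

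In sterol transport, NPC1, which exports cholesterol from lysosomes, was at 184, 191 and 219 TPM among the A549 MOCK libraries and 170.3, 184 and 213 TPM among the A549 Rec libraries. STARD4, a carrier of cholesterol between membranes, was at 25.3, 25.0 and 27.4 TPM among the A549 MOCK libraries and 24.2, 22.6 and 24.4 TPM among the A549 Rec libraries. Replicate 3 was the highest library of its group for both genes, the opposite of the pattern in the regulators. MYLIP, a ubiquitin ligase for lipoprotein receptors, was at 8.44, 7.16 and 8.28 TPM among the A549 MOCK libraries and 10.1, 9.03 and 8.07 TPM among the A549 Rec libraries. NPC1L1, the intestinal cholesterol importer, was near 0 at 0.60, 0.46 and 0.27 TPM among the A549 MOCK libraries and 0.57, 0.59 and 0.29 TPM among the A549 Rec libraries. It rested on 8 to 18 reads and was the only member below the filter of at least 1 TPM in 3 libraries, leaving 40 of 41 members to be tested.

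The fatty acid arm was led by SCD, the stearoyl-CoA desaturase that makes monounsaturated fatty acids, which ranked 34 among all listed genes. SCD was at 2629, 2610.3 and 1977 TPM among the A549 MOCK libraries and 2310.3, 2452 and 2311 TPM among the A549 Rec libraries. ACLY, which supplies cytosolic acetyl-CoA from citrate, was at 588, 573 and 415 TPM among the A549 MOCK libraries and 584, 599 and 462 TPM among the A549 Rec libraries. The desaturases of polyunsaturated fatty acids came next. FADS1 was at 379.9, 361 and 327 TPM among the A549 MOCK libraries and 339.9, 350.3 and 355 TPM among the A549 Rec libraries. FADS2 was at 322, 324 and 255 TPM among the A549 MOCK libraries and 289, 318 and 309 TPM among the A549 Rec libraries. ACSL4, which activates arachidonic acid and related chains, was at 352, 349 and 251 TPM among the A549 MOCK libraries and 298, 305 and 298 TPM among the A549 Rec libraries. FASN, the fatty acid synthase itself, was at 267, 285 and 178 TPM among the A549 MOCK libraries and 233, 270.2 and 184 TPM among the A549 Rec libraries. The groups overlapped in each of these genes, and SCD5, a second desaturase, was far below SCD at a mean of 14.6 TPM. ACACA, the acetyl-CoA carboxylase of cytosolic synthesis, was listed at 0.76, 0.62 and 4.29 TPM among the A549 MOCK libraries and 0.29, 4.24 and 1.36 TPM among the A549 Rec libraries, which is 19 to 322 reads. A copy of this gene lies on 1 alternate sequence of GRCh38, reads matching both places could have been lost or split by the authors' counting, and its values are therefore uncertain. The same holds for LSS, the lanosterol synthase, which had 1 such copy and means of 10.1 ± 2.64 TPM in A549 MOCK and 9.14 ± 1.07 TPM in A549 Rec (SD, n = 3).

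**Figure D1:**
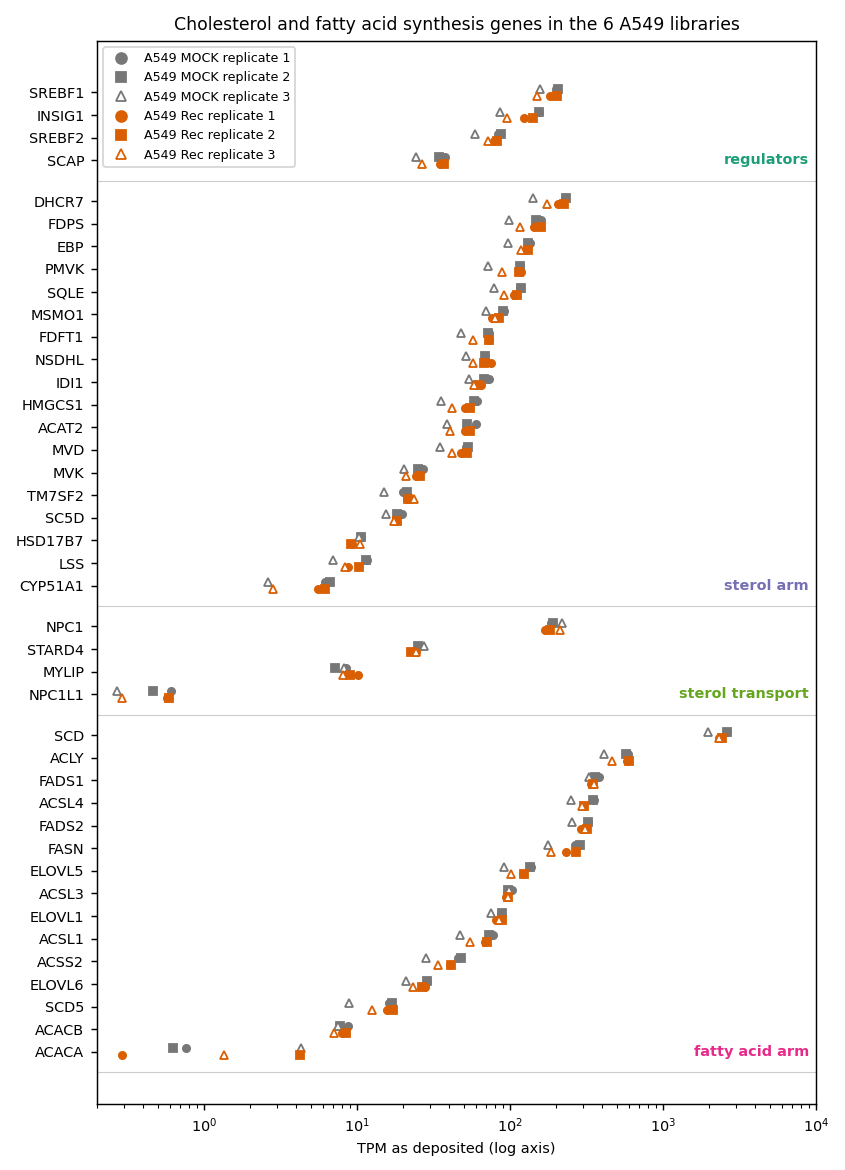
Deposited TPM (x axis, log scale) of the 41 genes in the 6 libraries, grouped by role and ordered by mean, with A549 MOCK in grey, A549 Rec in orange and replicate 3 as open triangles. SCD stands highest at 1977 to 2629 TPM, NPC1L1 lowest, ACACA scatters from 0.29 to 4.29 TPM, and the A549 MOCK replicate 3 triangle lies left of most symbols with exceptions such as NPC1 and STARD4.

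No member of either arm was called as different between A549 Rec and A549 MOCK. In bulk RNA a change in the share of expressing cells and a change in RNA per cell cannot be told apart. The limma test on log2(TPM + 1) over 17408 genes, with calls at a fold of at least 2 and p under 0.05 after Benjamini-Hochberg adjustment, called 1 gene, RCVRN (0.00574% of genes tested), and 0 of the 40 members. An unadjusted p under 0.05 was reached by 359 genes (2.06%) and by 0 members, and the adjusted p of every member was 0.9997. The share of 2.06% is smaller than a threshold of 0.05 gives when no gene differs, so this fit was conservative. With DESeq2 on read counts at the same fold and adjusted p thresholds, the paper listed differing genes in both directions. The 1 call here therefore does not show that only RCVRN differed. When the replicate number was entered as a block, 715 genes (4.11%) and 0 members had an unadjusted p under 0.05, and the adjusted p of every member was 0.998. The median log2 difference was 0.01 for the sterol arm, -0.02 for the fatty acid arm and 0.02 for all genes tested.

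In the regulators the log2 difference, A549 Rec minus A549 MOCK, was -0.11 for INSIG1 (95% confidence interval -0.72 to 0.51), -0.08 for SREBF1 (-0.48 to 0.32), 0.04 for SREBF2 (-0.35 to 0.43) and 0.05 for SCAP (-0.41 to 0.51). In the sterol arm the extremes were HSD17B7, a ketosteroid reductase of the pathway, at -0.12 (-0.36 to 0.13), and TM7SF2, a sterol reductase, at 0.23 (-0.11 to 0.57). HSD17B7 was at 10.7, 10.6 and 10.3 TPM among the A549 MOCK libraries and 9.22, 9.17 and 10.5 TPM among the A549 Rec libraries. TM7SF2 was at 19.9, 21.3 and 15.1 TPM among the A549 MOCK libraries and 21.2, 21.4 and 23.4 TPM among the A549 Rec libraries. Neither gene separated the groups. In the fatty acid arm the extremes were FASN at -0.07 (-0.60 to 0.46) and SCD5 at 0.15 (-0.43 to 0.73), and SCD was at -0.02 (-0.49 to 0.45). The intervals of all members except ACACA excluded a change of 2-fold in either direction, and ACACA ran from -1.4504 to 1.5004. Of the transport genes, MYLIP was at 0.17 (-0.13 to 0.46), NPC1 at -0.07 (-0.39 to 0.26) and STARD4 at -0.12 (-0.35 to 0.11).

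On deposited TPM the groups did not overlap for 1 member, STARD4, which was lower in all 3 A549 Rec libraries, against 5.16% of all genes tested in either direction and 2.69% lower, and its exact permutation p was 0.1, the smallest that 3 against 3 libraries allow. After rescaling its groups overlapped, with 29.2, 29.7 and 41.9 for A549 MOCK against 29.3, 26.1 and 33.4 for A549 Rec, and the difference in pair 1 was 0.0020. The direction of other small differences also depended on the scaling. On deposited TPM 20 of 40 members were lower in A549 Rec (against 43.4% of all genes), with 8 of 18 in the sterol arm and 8 of 15 in the fatty acid arm. After rescaling, 30 of 40 were lower (against 57.5% of all genes), with 12 of 18 in the sterol arm and 13 of 15 in the fatty acid arm. The median log2 difference was then -0.03 for the sterol arm, -0.06 for the fatty acid arm and -0.02 for all genes, with 0 members at an unadjusted p under 0.05 (2.52% of all genes). With rescaling and the replicate block together, FASN alone among the members reached an unadjusted p under 0.05 (5.04% of all genes), at a log2 difference of -0.12 and a limma adjusted p of 0.934.

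Libraries were paired by replicate number alone, which is not shown here to be a true pairing, and the same-numbered pairs did not move alike. In pair 1, 4 of 40 members were higher in A549 Rec (38.0% of all genes), namely NSDHL, PMVK and TM7SF2 of the sterol arm and MYLIP, and none of the 15 fatty acid genes was. In pair 2, 13 of 40 were higher (56.8% of all genes), and in pair 3, 33 of 40 (62.8% of all genes), including all 18 of the sterol arm and 12 of 15 of the fatty acid arm. The median log2 difference of the sterol arm was -0.14, -0.03 and 0.22 in pairs 1, 2 and 3, that of the fatty acid arm -0.15, -0.04 and 0.16, and that of all genes -0.05, 0.03 and 0.08. In pair 3 the mitochondrial share was 34.5% for A549 MOCK against 26.9% for A549 Rec, and the rescaled values leave these genes out. After rescaling, 9 of 40 members were higher in pair 1 (52.1% of all genes), 8 in pair 2 (47.2%) and 22 in pair 3 (39.6%), with 13 of 18 in the sterol arm and 8 of 15 in the fatty acid arm in pair 3. The sterol medians were then -0.08, -0.07 and 0.07 and the fatty acid medians -0.09, -0.08 and 0.01, against 0.01, -0.01 and -0.06 for all genes.

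**Figure D2:**
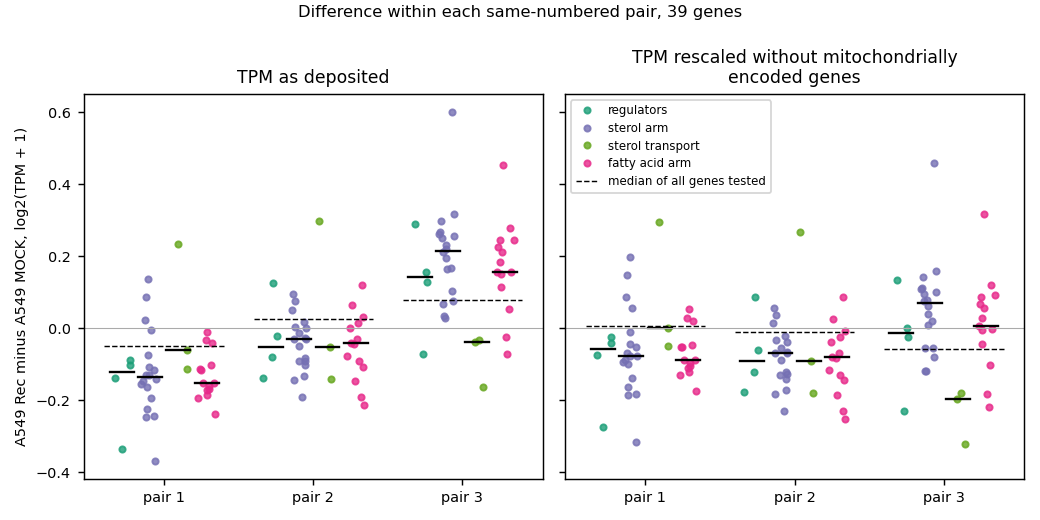
Difference between A549 Rec and A549 MOCK on the log2(TPM + 1) scale (y axis) within each same-numbered pair, for 39 genes (ACACA and the untested NPC1L1 are not drawn), before (left) and after (right) rescaling. Black bars are medians of each list over its tested genes and dashed lines are medians of all genes tested. On deposited TPM the sterol points lie mostly below 0 in pair 1 (median -0.14) and all above 0 in pair 3 (median 0.22), and after rescaling the gap narrows to -0.08 and 0.07.

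On deposited TPM, TM7SF2 was the only member higher in A549 Rec in all 3 pairs (13.1% of all genes), and SREBF1, NPC1 and STARD4 were lower in all 3 (9.66% of all genes). After rescaling 0 members were higher in all 3 pairs (10.7% of all genes) and 10 were lower (15.4%). These 10 were INSIG1 and SREBF1, the sterol genes CYP51A1, HSD17B7 and IDI1, the fatty acid genes ACSL3, ELOVL5, FADS1 and FASN, and NPC1. FASN differed by -0.13, -0.12 and -0.10 in the rescaled pairs, the most even of these differences. INSIG1 differed by -0.27, -0.18 and -0.00, so its direction in pair 3 rested on a difference near 0. SREBF1 and NPC1 were lower in all 3 pairs on either scale.

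Replicate 3 was also compared with replicates 1 and 2. On rescaled TPM, with the group as a term, limma called 1749 of 17999 genes (9.72%) at an adjusted p under 0.05 and 7 of 40 members. Of these, 4 were higher in replicate 3 (5.68% of all genes were), namely NPC1, STARD4, ACSL3 and FADS1, and 3 were lower (4.03%), namely CYP51A1, INSIG1 and PMVK. None of the 7 reached a fold of 2, which 139 genes did (0.772%). An exact permutation test on rescaled TPM, without the group as a term, gave p = 0.0667 for each of the 7 except INSIG1 (p = 0.133). As 0.0667 is the smallest p that this test allows with these libraries, it could not reach 0.05. The mitochondrial share was also higher in the replicate 3 libraries, the paper's methods name 2 sequencing instruments without saying which library was run on which, and the part of either in these differences was not tested.

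Of the 7 called members NPC1 showed the largest rise, from 213 and 226 rescaled TPM in A549 MOCK replicates 1 and 2 to 334 in replicate 3, and from 206 and 212 to 292 in A549 Rec. Its log2 difference was 0.54 ± 0.05 (SE; limma adjusted p = 0.00993), with 0.60 among the A549 MOCK libraries and 0.48 among the A549 Rec libraries. STARD4 stood at 29.2, 29.7 and 41.9 among the A549 MOCK libraries and at 29.3, 26.1 and 33.4 among the A549 Rec libraries, a log2 difference of 0.38 ± 0.08 (limma adjusted p = 0.0454). Both genes were highest in replicate 3 of each line. MYLIP, the remaining tested gene of that list, was highest in replicate 3 of A549 MOCK and not of A549 Rec, at 9.77, 8.49 and 12.7 against 12.2, 10.4 and 11.0 in A549 Rec.

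Among the regulators and sterol genes the called members were lower in replicate 3. INSIG1 stood at 179.9, 184 and 132 rescaled TPM among the A549 MOCK libraries and at 149, 162 and 132 among the A549 Rec libraries, a log2 difference of -0.35 ± 0.07 (SE; limma adjusted p = 0.0347). CYP51A1 stood at 7.11, 7.86 and 4.02 among the A549 MOCK libraries and at 6.69, 7.11 and 3.84 among the A549 Rec libraries, the largest difference of any tested member below 0 at -0.73 ± 0.12 (limma adjusted p = 0.0252), with the overlap with other genes given above. PMVK stood at 135, 138 and 109.9 among the A549 MOCK libraries and at 143, 132 and 121 among the A549 Rec libraries, a difference of -0.25 ± 0.06 (limma adjusted p = 0.0477). In all 3 genes both replicate 3 libraries were below the other 4. HMGCS1, which makes HMG-CoA at the entry of the pathway, stood at 70.2, 69.1 and 54.0 among the A549 MOCK libraries and 61.7, 63.5 and 57.1 among the A549 Rec libraries, and its difference of -0.25 had a limma adjusted p of 0.0673. FDPS, FDFT1 (squalene synthase), DHCR7 and ACAT2 (which makes acetoacetyl-CoA) had differences of -0.21, -0.17, -0.20 and -0.15 with unadjusted p under 0.05 that did not pass the adjusted threshold. Without A549 MOCK replicate 3 the differences of HMGCS1 and DHCR7 were -0.13 and -0.080, and without A549 Rec replicate 3 the difference of DHCR7 was -0.32. HSD17B7 ran the other way, at 12.4, 12.6 and 15.7 among the A549 MOCK libraries and 11.1, 10.6 and 14.4 among the A549 Rec libraries, with a difference of 0.34 and a limma adjusted p of 0.0533. SCAP was at 43.4, 40.5 and 37.2 among the A549 MOCK libraries and 42.1, 43.1 and 36.5 among the A549 Rec libraries (-0.19, limma adjusted p = 0.0838), whereas SREBF1 (-0.08) and SREBF2 (-0.05) had intervals that spanned 0.

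The fatty acid arm did not move in a single direction. FADS1, at 439.6, 428 and 500.04 rescaled TPM among the A549 MOCK libraries and 411, 404 and 485 among the A549 Rec libraries, had a log2 difference of 0.23 ± 0.03 (SE; limma adjusted p = 0.0222). ACSL3, an acyl-CoA synthetase of lipid droplets, stood at 118, 115 and 151 among the A549 MOCK libraries and 114, 113 and 133 among the A549 Rec libraries, a difference of 0.30 ± 0.05 (limma adjusted p = 0.0258). Both replicate 3 libraries exceeded the other 4 for each gene. ELOVL1, an elongase of very long chains, and FADS2 had differences of 0.18 and 0.14 with unadjusted p under 0.05 only. Values below 0 with unadjusted p under 0.05 only were those of SCD5 (-0.33), FASN (-0.24), ACSL1 (-0.20), ACSS2 (-0.19), ELOVL5 (-0.13) and ACLY (-0.12). Several of these rested on single libraries: without A549 MOCK replicate 3 the differences were -0.18 for SCD5, -0.13 for ACSL1, -0.056 for ACSS2, -0.058 for ELOVL5 and 0.24 for FADS2, and without A549 Rec replicate 3 they were -0.33 for ACSS2, -0.20 for ELOVL5 and 0.039 for FADS2. FASN stood at 309, 338 and 271 among the A549 MOCK libraries and at 282, 312 and 252 among the A549 Rec libraries, so that replicate 3 was lowest in both lines (limma adjusted p = 0.0551). ACLY stood at 679.9, 679 and 634 among the A549 MOCK libraries and at 706, 691 and 632 among the A549 Rec libraries (limma adjusted p = 0.0681). SCD, the most abundant member, was at 3042, 3095 and 3019.5 among the A549 MOCK libraries and 2794, 2829 and 3162 among the A549 Rec libraries, a difference of 0.07 with an interval of -0.05 to 0.20.

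**Figure D3:**
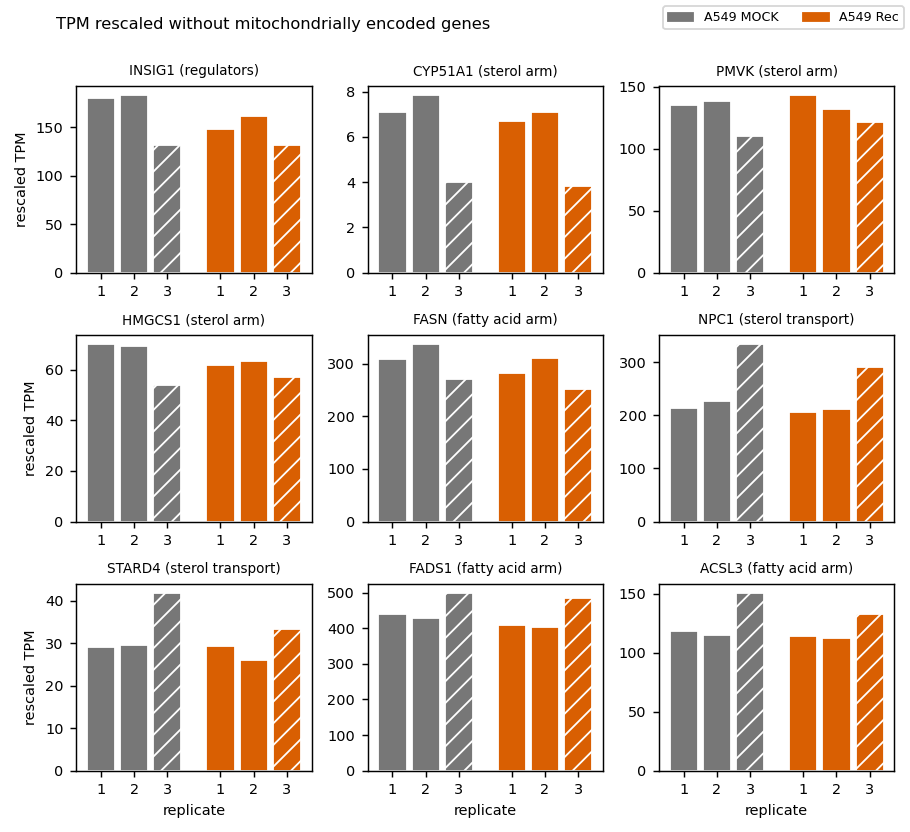
Rescaled TPM (y axis, from 0) of 9 members in each library, with A549 MOCK in grey, A549 Rec in orange and replicate 3 hatched. The replicate 3 bars are the lowest of each line for INSIG1, CYP51A1, PMVK, HMGCS1 and FASN and the highest for NPC1, STARD4, FADS1 and ACSL3, with NPC1 at 334 and 292 against 206 to 226 in the other libraries.

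Over the tested members, 22 had an unadjusted p under 0.05 in this contrast, 7 higher and 15 lower, against 19.8% of all genes higher and 10.9% lower. Both replicate 3 libraries lay outside the range of the other 4 for 25 members, 8 above and 17 below, against 26.9% and 14.4% of all genes, and the sterol arm held 2 above and 9 below while the fatty acid arm held 4 above and 6 below. The median log2 difference was -0.12 for the sterol arm, with 12 of 18 below 0, 0.05 for the fatty acid arm, with 7 of 15 below 0, and 0.08 for all genes, of which 38.5% were below 0. The 4 regulators had a median of -0.13 and all lay below 0, and the 3 tested transport genes had a median of 0.38 and all lay above 0. The fatty acid median changed sign with median-of-ratios scaling (-0.038, 9 of 15 below 0), with quantile normalization (-0.085), without A549 MOCK replicate 3 (-0.0058) and without A549 Rec replicate 3 (-0.080). The sterol median stayed below 0, at -0.20 with median-of-ratios scaling, -0.050 without A549 MOCK replicate 3 and -0.17 without A549 Rec replicate 3. On deposited TPM the median of all genes moved to -0.19, that of the sterol arm to -0.41 and that of the fatty acid arm to -0.25, and FADS1, FADS2 and ELOVL1 turned to -0.07, -0.16 and -0.12, while NPC1 stayed at 0.24 (limma adjusted p = 0.0353).

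**Figure D4:**
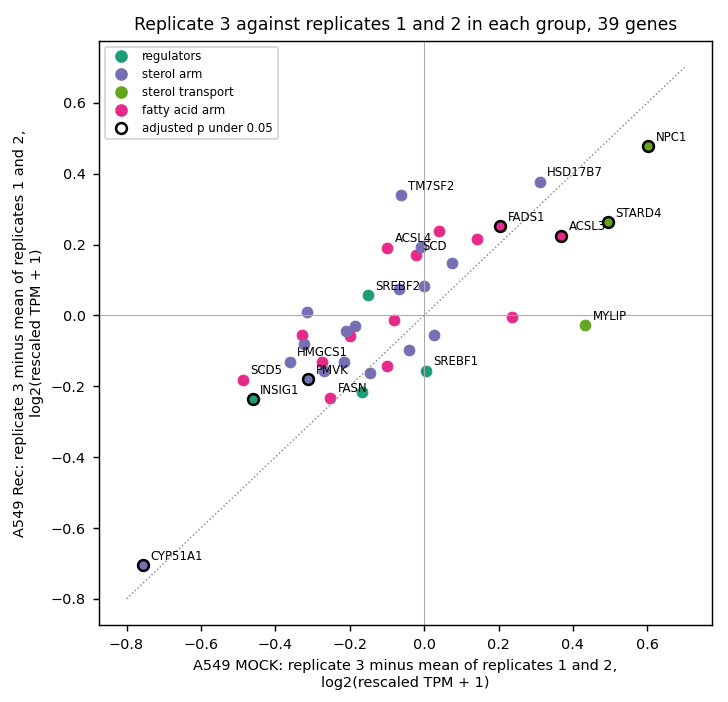
Replicate 3 minus the mean of replicates 1 and 2 on the log2(rescaled TPM + 1) scale in A549 MOCK (x axis) and A549 Rec (y axis) for 39 tested members (ACACA is not drawn), with black rings for an adjusted p under 0.05 and a dotted line of equal difference. NPC1 lies at 0.60 and 0.48, INSIG1 at -0.46 and -0.24 and CYP51A1 at -0.75 and -0.71, whereas TM7SF2 lies above 0 in A549 Rec only and MYLIP above 0 in A549 MOCK only.

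The calls depended on which libraries were used and on the variance model. Leaving out A549 MOCK replicate 2 left 0 members called. Leaving out A549 MOCK replicate 1 or A549 Rec replicate 2 left 1, and leaving out A549 Rec replicate 1 left 2. These counts stand without those over all genes, so they do not show that the members in particular lost their calls. No count is given for the fits without a replicate 3 library, as only 1 such library then remained. Limma without a mean-variance trend called 3 genes in all and 0 members, fewer than the 6 genes it then called between the lines at a fold of at least 2. In that replicate 3 fit 16 members had an unadjusted p under 0.05, a count without its share over all genes. No member's replicate 3 difference was shown to differ between the lines. The interaction of group and replicate 3 called 1 gene (0.00556%) and 0 members by limma, and 7 of 40 members had an unadjusted p under 0.05 (11.8% of all genes), namely HMGCS1, DHCR7 and TM7SF2 of the sterol arm and ACSL4, ACSS2, FADS2 and SCD of the fatty acid arm.

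Other genes of these pathways, listed by role, were read in the same fits. Of 22 sterol genes and 30 fatty acid genes outside the members, 0 were called between A549 Rec and A549 MOCK by limma in these fits. On deposited TPM 0 had an unadjusted p under 0.05 (2.06% of all genes). After rescaling 1 of the 30 did, FABP5 (2.52% of all genes), and with rescaling and the replicate block 2 did, FABP5 and MLX (5.04% of all genes), both lower in A549 Rec and both named after their values were seen. In replicate 3, where 9.72% of all genes were called, 1 of the 22 was called (4.55%), LBR, a sterol reductase of the nuclear envelope, at a log2 difference of -0.28 (limma adjusted p = 0.033). Of the 30, 4 were called (13.3%), of which FADS3, a desaturase homologue beside FADS1 and FADS2, was at 0.58, the lipid droplet protein PLIN2 at 0.32, MID1IP1, an activator of acetyl-CoA carboxylase, at 0.30, and SLC25A1, the mitochondrial citrate carrier, at -0.26, all 5 named after their values were seen. FADS3 stood at 30.9, 30.4 and 47.1 rescaled TPM among the A549 MOCK libraries and at 27.8, 28.3 and 41.6 among the A549 Rec libraries, a pattern like that of FADS1. SLC25A1 stood at 256, 257 and 201 among the A549 MOCK libraries and at 254, 249 and 223 among the A549 Rec libraries.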

How the data were processed

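RNA of 3 A549 MOCK and 3 A549 Rec libraries was sequenced in paired-end mode after poly(A) selection. The authors trimmed reads with Trimmomatic (0.38), mapped them to GRCh38 with HISAT2 (2.1.0), counted them with featureCounts (1.6.3) and deposited TPM. The submitters' processing notes name a mouse build, but the table holds human gene identifiers. The annotation release, strand setting and treatment of multi-mapped reads are not given in the sources used here. Of the 58676 identifiers, 58207 were in GENCODE v44. Groups and replicate numbers came from the labels. The titles of both replicate 3 samples carry no number, unlike the others, and their number was taken from the sample descriptions.

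Genes with at least 1 TPM in at least 3 libraries were tested on log2(TPM + 1) with limma (3.58.1, R 4.3.3, trended variance, Benjamini-Hochberg over all genes, two-sided). The replicate 3 contrast used TPM rescaled without the 37 mitochondrially encoded genes. Reads were recovered from TPM (tolerance 0.01 of a whole read) for 29899 genes. The fits were run on simulated data with known differences and independent residuals, without the mitochondrial shift or the rescaling. These runs were checked for the size of the fitted differences and cannot show that the replicate 3 calls are calibrated. Libraries were paired by the replicate number in the labels. Deviations from the group mean correlated between same-numbered libraries at 0.115, 0.164 and 0.342 for replicates 1, 2 and 3. Differently numbered libraries were not compared in this way, so these values do not show a true pairing. Named genes were the regulators, transport genes, the 5 most abundant and the extreme members of each arm, and members with an unadjusted p under 0.05. The members, lists and tests were chosen with earlier results of these data known. Copies were sought with minimap2 (2.31), at 90% coverage and 98% identity.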

Additional observations from a re-analysis of the deposited data

How the results depend on the processing

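Between A549 Rec and A549 MOCK, 0 members were called under every alternative run. Over all genes the call count was 6 without the filter on low TPM and 6 without the variance trend, and 1 to 2 when a library was left out. The replicate block changed no call, and the fit with the block gave 1 called gene. Rescaling, with or without the block, turned SREBF2 (-0.0038), DHCR7 (-0.0018), SQLE (-0.040) and FADS2 (-0.013) below 0, quantile normalization turned DHCR7 (-0.011), SQLE (-0.029) and FADS2 (-0.031), and median-of-ratios scaling and voom on recovered reads, the latter added after seeing the data, turned SQLE (-0.011 and -0.016). As single libraries were left out, the log2 differences ran from -0.091 to 0.19 (ACLY), -0.22 to 0.022 (ACSL4), -0.19 to 0.17 (DHCR7), -0.089 to 0.14 (EBP), -0.089 to 0.018 (FADS1), -0.082 to 0.092 (FADS2), -0.28 to 0.076 (FASN), -0.15 to 0.20 (FDPS), -0.39 to 0.043 (INSIG1), -0.16 to 0.0060 (NPC1), -0.13 to 0.23 (PMVK), -0.13 to 0.19 (SCAP), -0.15 to 0.053 (SCD), -0.13 to 0.30 (SCD5), -0.18 to 0.11 (SQLE), -0.20 to 0.045 (SREBF1) and -0.14 to 0.15 (SREBF2). Without A549 MOCK replicate 3, 3 members had an unadjusted p under 0.05, ACSL4, ACSS2 and LSS (named after their values were seen), all lower in A549 Rec and with a limma adjusted p of 0.939. As each single library was left out in turn, 0 to 3 members and 305 to 646 of all 17408 genes tested reached that unadjusted p. For replicate 3, genes and members called were 635 and 2 without the filter, 4620 and 24 on deposited TPM, 3 and 0 without the trend, 3666 and 18 by voom on recovered reads, and 52 to 2134 and 0 to 10 as single libraries were left out, and 11 members were called with median-of-ratios scaling. On deposited TPM, ELOVL1 (-0.12), FADS2 (-0.16) and FADS1 (-0.069) turned. Members of 1 sign in all 3 pairs were 0 higher and 10 lower after rescaling (10.7% and 15.4% of all genes). With median-of-ratios scaling, added after seeing the data, they were 2 higher and 6 lower, without the shares over all genes beside them. The cause of these shifts was not tested. The lowest libraries of NPC1L1, ACACA, CYP51A1 and MYLIP held 8, 19, 53 and 107 reads, the fewest among the members. ACACA ran from 19 to 322 reads in libraries of similar depth, and the cause of that spread was not tested.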
